A study of Pimephales promelas with 51 samples.

Results

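Whole larvae of the fathead minnow (Pimephales promelas) exposed to 25 µM dexamethasone were set against larvae exposed to 0.19 µM fluticasone propionate, the highest concentration of each compound in the study. The comparison holds 6 of the study's 51 libraries, 3 per compound, which were chosen by their compound and nominal concentration and joined gene by gene from both count tables. The larvae were wild type (strain GLTED-Duluth-wt) of 5 to 6 days after fertilisation, of undetermined sex, kept for 24 h in water that was not renewed. RNA of pooled larval homogenates was sequenced from its 3′ ends, and nothing in the labels says whether libraries A, B and C came from separate vessels, so the spread behind each p-value is that between these libraries and may be technical. The groups used here are dexamethasone at 25 µM (measured 23.6726 µM), fluticasone propionate at 0.19 µM (measured 0.0597 µM) and larvae given the solvent dimethyl sulfoxide (DMSO). Dexamethasone at 8 µM (measured 6.5817 µM) and fluticasone propionate at 0.1 µM (measured 0.0338 µM) form a second pair. Each group has 3 libraries. The second pair shares no library with the first, but both were fitted together with all 51 libraries. All groups share the strain, age and exposure time.

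Dexamethasone and fluticasone propionate are synthetic glucocorticoids. Both bind the glucocorticoid receptor, a ligand-activated transcription factor that waits in the cytosol in a complex with heat shock protein 90 and FK506-binding chaperones, moves to the nucleus once bound, and switches on genes of stress adaptation, glucose supply and muscle protein breakdown. Both steroids are fluorinated, and fluticasone propionate carries in addition a propionate ester and a fluoromethyl thioester side chain in place of the hydroxyketone side chain of dexamethasone. In mammals fluticasone propionate is the more potent of the pair. Glucocorticoids are also known to restrain inflammation and growth. The measured dexamethasone concentration was 396.53 times that of fluticasone propionate, so a difference between these larvae is one between 2 exposures, in which compound and concentration cannot be told apart. Measured dexamethasone came to 93.0% of its nominal value and measured fluticasone propionate to 31.3%.

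The libraries held 1382307 to 2027874 reads in genes (1316614 to 2097358 over all 51). In larvae given dexamethasone, 26.7%, 24.3% and 26.4% of the reads lay outside annotated genes, against 22.6%, 25.7% and 22.9% in larvae given fluticasone propionate, so the groups overlapped. Markers of skeletal muscle (37 of 46 passed the filter on low counts), retina and nerve (41 of 57), liver (32 of 43) and gut (30 of 43) were measured, as the label of a whole body has it. In such samples fewer cells of a type and less RNA per cell cannot be told apart. The median distance between a dexamethasone and a fluticasone propionate library, the root mean square difference of log2 CPM (counts per 1000000 reads) over genes of at least 20 CPM, was 0.341 (range 0.305 to 0.357). Dexamethasone libraries lay 0.302 to 0.340 from each other, and fluticasone propionate libraries 0.308 to 0.348. By this measure, libraries of different compounds were about as far apart as libraries of the same compound. From DMSO libraries, those of dexamethasone lay 0.346 to 0.394 away and those of fluticasone propionate 0.321 to 0.357.

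No gene passed the test between the compounds. Of 18606 genes tested with edgeR's quasi-likelihood test, 0 (percent called 0) had a Benjamini-Hochberg adjusted p under 0.05, and the smallest adjusted p was 0.435. DESeq2 also called 0. At an unadjusted p under 0.05, edgeR listed 982 genes (5.28%), of which 499 (2.68%) were higher and 483 (2.6%) lower with dexamethasone. The edgeR share is close to what such a threshold gives when no gene differs. DESeq2, fitted without the filter on low counts, listed 852 of 29295 genes. In 2072 genes (11.1%) the 3 dexamethasone libraries did not overlap the 3 fluticasone propionate libraries, 1027 of them higher (5.52%) and 1045 lower (5.62%). All differences below are therefore values with their intervals, and unadjusted p-values are given to rank them. The intervals are not adjusted over genes. For a gene picked by its small p, an interval that leaves out 0 is thus no evidence of a difference by itself.

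How small a difference these libraries could bound depended on the level of the gene. The 95% interval of the log2 difference lay wholly within ±1, a factor of 2 in either direction, for 12857 of the 18606 genes (69.1%). This held for 1.27% of genes under 5 CPM, 55.8% of genes from 5 to 20 CPM, 97.5% of genes from 20 to 100 CPM and 99.6% of genes above 100 CPM. The median standard error was 0.27 on the log2 scale. On simulated counts with the depth and spread of these libraries, the same test recovered 61% of genes changed by 1 and 87% of genes changed by 2 on the log2 scale. The changed genes, 100 of each size, were drawn only from genes averaging at least 5 CPM. These shares therefore do not cover genes under 5 CPM and hold for that number of changed genes. In the plot of all genes by level, the cloud of differences narrows with the level and most well-measured genes lie close to 0.

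**Figure D1:**
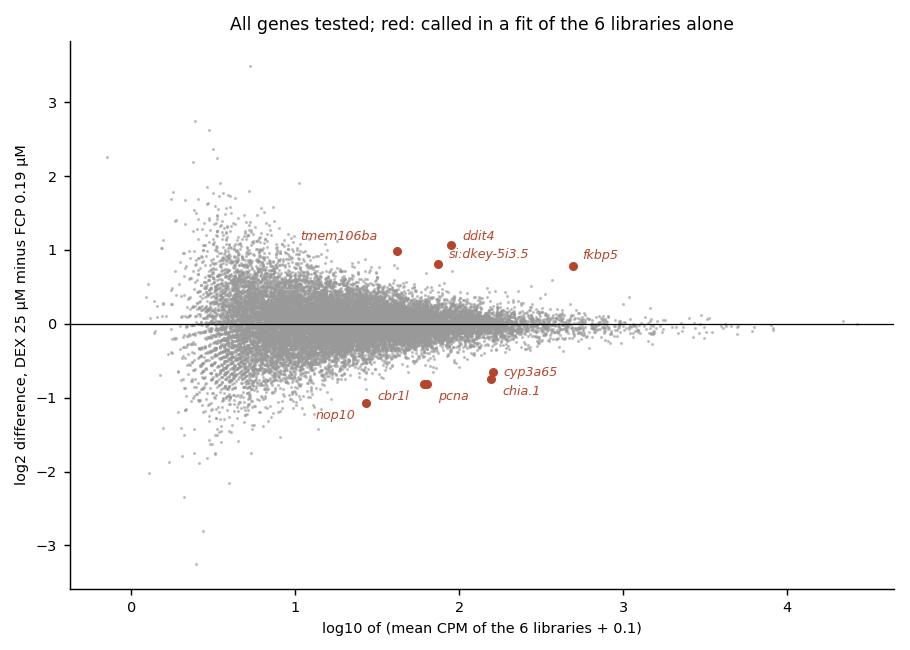
The log2 difference between larvae given 25 µM dexamethasone and larvae given 0.19 µM fluticasone propionate (vertical axis) is plotted against the mean level of the 6 libraries (horizontal axis, log10 of CPM plus 0.1), 1 point per gene for 18606 genes. Red points are the 9 genes called when only these 6 libraries were fitted, 4 higher and 5 lower with dexamethasone; the spread of all genes narrows as the level rises.

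Against DMSO, each exposure changed genes on its own. Dexamethasone at 25 µM changed 217 genes (1.17%), 112 higher (0.602%) and 105 lower (0.564%), and fluticasone propionate at 0.19 µM changed 43 (0.231%), 37 higher (0.199%) and 6 lower (0.0322%), at an adjusted p under 0.05. Both comparisons use the same 3 DMSO libraries, so their lists are not independent, and a gene called with only 1 compound is not thereby shown to differ between them; the direct test above called none. With each library left out in turn, the dexamethasone count was between 76 (without DMSO library B) and 166 (without DMSO library C), with 139, 100 and 124 genes without dexamethasone libraries A or B or DMSO library A. For fluticasone propionate the count was between 14 (without fluticasone propionate library C) and 28 (without its library A), with 21 without its library B, and 20, 19 and 27 without DMSO libraries A, B or C.

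The known targets of the glucocorticoid receptor were the group of main interest. This list and those below, with their members, were chosen with earlier results of these data known. Their counts beside the shares of all genes are therefore not independent evidence. Of 46 genes on this list, 43 passed the filter on low counts, and none was called between the compounds. At an unadjusted p under 0.05, 7 were higher with dexamethasone (background 2.68%) and 0 lower (background 2.6%), and the 3 libraries of each group did not overlap in 9 that were higher (background 5.52%) and 0 that were lower (background 5.62%). The median log2 difference over the 43 was 0.10, against 0.005 over all genes tested, and 31 lay above 0. When any 1 library was dropped, 4 to 8 genes had that unadjusted p, with 4 without dexamethasone library A and 4 without dexamethasone library B, none lower in any of the 6 fits, and medians of 0.06 to 0.17. Against DMSO, 10 members rose with dexamethasone (background 0.602%) and 4 with fluticasone propionate (background 0.199%). mgarpb and rps6kb1a, put on the list because of earlier results of these data, are among the 10 and among the 4.

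fkbp5, the co-chaperone that binds the receptor complex and lowers its affinity for hormone, is a standard marker of receptor activity. It had 610, 629 and 645 CPM in larvae given dexamethasone, against 331, 358 and 402 CPM in larvae given fluticasone propionate and 116, 157 and 112 CPM in DMSO larvae. All dexamethasone libraries lay above all fluticasone propionate libraries, and these lay above all DMSO libraries. The log2 difference between the compounds was 0.79 ± 0.21 (SE, 95% interval 0.35 to 1.22, a 1.72-fold difference, unadjusted p = 0.000848, adjusted p = 0.717 by edgeR). Against DMSO fkbp5 rose by 2.29 on the log2 scale with dexamethasone (adjusted p = 4.52e-08) and by 1.501 with fluticasone propionate (adjusted p = 0.000581).

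Whether fkbp5 counted as different depended on the libraries and on the genes that entered the fit. With all 51 libraries and the filter on low counts its standard error was 0.21. A fit of the 6 libraries alone gave 0.09 and an adjusted p of 1.03e-05 by edgeR. All 51 libraries without that filter gave 0.11 and an adjusted p of 1.44e-07 by edgeR. The standard deviation of its log2(CPM + 1) within a group was 0.103 over both groups compared and 0.317 over the other 15 groups, each pooled as the square root of the mean variance. The estimate itself was 0.78 in the smaller fit. Over the fits that drop 1 library it ranged over 0.72 to 0.86.

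ddit4, an inhibitor of the growth kinase mTOR complex 1 that glucocorticoids induce in muscle, had 94.6, 148 and 121 CPM with dexamethasone, against 68.7, 45.4 and 58.4 CPM with fluticasone propionate and 22.2, 48.9 and 39.8 CPM in DMSO. The compounds' libraries did not overlap, while those of fluticasone propionate and DMSO did. The log2 difference was 1.07 ± 0.33 (SE, interval 0.39 to 1.75, adjusted p = 0.788 by edgeR). rps6kb1a, which encodes the S6 kinase that mTOR complex 1 activates, had 237, 314 and 204 CPM with dexamethasone, against 222, 184 and 205 CPM with fluticasone propionate and 99.2, 68.3 and 98.1 CPM in DMSO. Its groups overlapped between the compounds, with a log2 difference of 0.31 (interval 0.00 to 0.61), and both compounds lay well above DMSO.

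lpin1a, a lipin that makes diacylglycerol and co-activates fat oxidation genes, had 39.0, 39.6 and 27.4 CPM with dexamethasone, against 24.7, 22.1 and 17.7 CPM with fluticasone propionate and 10.3, 11.2 and 13.7 CPM in DMSO. The 3 groups formed separate steps, and the difference between the compounds was 0.73 on the log2 scale (interval 0.22 to 1.24). tsc22d3, the glucocorticoid-induced leucine zipper that restrains inflammatory signalling, had 203, 268 and 195 CPM with dexamethasone, against 193, 162 and 160 CPM with fluticasone propionate. The lowest dexamethasone library lay just above the highest fluticasone propionate library, with a log2 difference of 0.38 (interval 0.13 to 0.62). zbtb16a, a zinc finger transcription repressor that glucocorticoids induce in human cells, had 153, 137 and 141 CPM with dexamethasone, against 102, 120 and 122 CPM with fluticasone propionate, a log2 difference of 0.33 (interval 0.09 to 0.57).

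mgarpb, a homolog of a mitochondrial protein first described in steroid-producing tissue, had 81.6, 81.1 and 68.1 CPM with dexamethasone, against 64.6, 57.6 and 58.9 CPM with fluticasone propionate and 24.0, 21.2 and 25.4 CPM in DMSO. The distance of both compounds from DMSO was far larger than that between them, which was 0.36 on the log2 scale (interval 0.02 to 0.70). The place of mgarpb and rps6kb1a among the 7 is likewise no independent evidence.

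By their log2 estimates, the compounds were closer to each other than to DMSO for glulb, klf9 and pck1, as for fkbp5, mgarpb and rps6kb1a. For lpin1a the 0.73 between the compounds (SE 0.26) was near the 0.87 of fluticasone propionate against DMSO (SE 0.30). Whether such distances differ was not tested. glulb, a glutamine synthetase that fixes ammonia and is a direct target in muscle, had 805, 863 and 836 CPM with dexamethasone, against 771, 784 and 796 CPM with fluticasone propionate and 398, 360 and 411 CPM in DMSO. The difference was 0.09 ± 0.10 (SE), and its interval of -0.11 to 0.29 lies well within ±1, while the gene rose against DMSO by 1.10 on the log2 scale with dexamethasone (adjusted p = 4.03e-12) and by 1.01 with fluticasone propionate (adjusted p = 1.55e-10). klf9, a transcription factor induced early by glucocorticoids, averaged 71.5 ± 5.7 CPM with dexamethasone, 56.3 ± 6.7 CPM with fluticasone propionate and 36.0 ± 7.2 CPM in DMSO (SD), a log2 difference of 0.34 between the compounds (interval -0.09 to 0.77). It rose against DMSO with dexamethasone (adjusted p = 0.0111) and did not pass with fluticasone propionate (adjusted p = 0.429). pck1, the gatekeeper enzyme of gluconeogenesis, averaged 217 ± 41.5 CPM with dexamethasone, 161 ± 10.95 CPM with fluticasone propionate and 93.6 ± 15.1 CPM in DMSO, a log2 difference of 0.43 between the compounds (interval -0.23 to 1.09), and was not called against DMSO with either.

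Several textbook targets had differences near 0. The kinase gene sgk1 differed by 0.00 between the compounds (interval -0.44 to 0.44), the clock gene per1b by 0.02 (interval -0.25 to 0.30), the phosphatase gene dusp1 by 0.02 (interval -0.40 to 0.43) and the transcription factor gene cebpb by 0.01 (interval -0.36 to 0.38). None of these 4 was called against DMSO with either compound. Of the other entries, mt2 and lpin1 had no row of that name and rasd1 was under the filter on low counts. The plot of all 43 targets shows most intervals across 0.

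**Figure D2:**
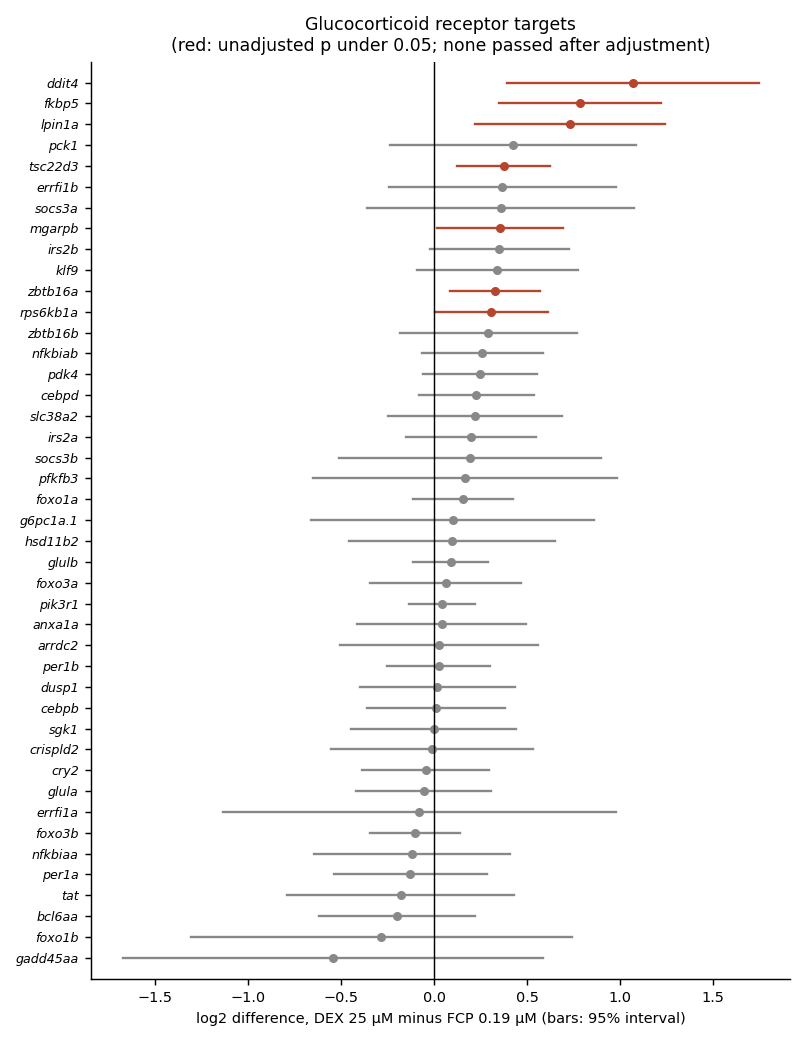
Each row is a glucocorticoid receptor target, with the log2 difference between larvae given 25 µM dexamethasone and larvae given 0.19 µM fluticasone propionate (point) and its 95% interval (bar). The 7 genes in red had an unadjusted p under 0.05, all above 0 and led by ddit4 at 1.07 and fkbp5 at 0.79; none passed after adjustment.

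None of the steroid receptors, their chaperones and the enzymes that make or inactivate cortisol was called. Of 27 measured genes of 38 listed, 3 were higher (fkbp5, pgr and esr2b) and 1 lower (hsp90aa1.2) at an unadjusted p under 0.05 (11.1% higher, background 2.68%), the groups did not overlap in 4 that were higher and 2 that were lower (backgrounds 5.52% and 5.62%), and the median difference was 0.06. nr3c1, the glucocorticoid receptor, averaged 47.9 CPM with dexamethasone and 54.2 CPM with fluticasone propionate, a log2 difference of -0.17 (interval -0.50 to 0.16). nr3c2, the mineralocorticoid receptor, averaged 83.9 CPM with dexamethasone and 88.9 CPM with fluticasone propionate, a difference of -0.08 (interval -0.37 to 0.21). hsp90ab1, the constitutive heat shock protein 90, differed by 0.05 (interval -0.13 to 0.23). hsp90aa1.2, an inducible copy whose reads may be split with near-identical copies, had 63.1, 53.0 and 54.8 CPM with dexamethasone, against 71.1, 93.0 and 95.3 CPM with fluticasone propionate and 83.3, 78.3 and 83.7 CPM in DMSO. The dexamethasone libraries were below all others, with a log2 difference of -0.60 (interval -1.02 to -0.17). pgr, the progesterone receptor, had 11.01, 14.7 and 15.5 CPM with dexamethasone, against 5.87, 8.14 and 5.89 CPM with fluticasone propionate. Its log2 difference of 1.03 stood against -0.71 in the second pair, so the sign differed between the pairs. The sign of esr2b differed too, with 0.59 in the first pair and -0.33 in the second (interval -0.89 to 0.22). fkbp5 is also on the target list above.

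Genes of DNA replication and nucleotide supply lay lower with dexamethasone. Of 53 entries, 44 were measured, 0 were higher and 9 lower at an unadjusted p under 0.05 (backgrounds 2.68% and 2.6%), the groups did not overlap in 11 that were lower and 0 that were higher (backgrounds 5.62% and 5.52%), and 39 of the 44 differences were below 0. The median was -0.40, and 5 to 8 genes were lower at that p when 1 library was left out, 5 of them without dexamethasone library C. Summed over the list, the level was 526, 491 and 514 CPM with dexamethasone, against 742, 692 and 605 CPM with fluticasone propionate and 925, 1130 and 812 CPM in DMSO, so the groups formed separate steps. None passed between the compounds. Against DMSO 8 fell with dexamethasone (background 0.564%) and 1 with fluticasone propionate (background 0.0322%). The median against DMSO over all 44 was -0.89 with dexamethasone and -0.43 with fluticasone propionate.

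pcna, the sliding clamp of DNA polymerase, had 42.5, 53.0 and 43.7 CPM with dexamethasone, against 93.4, 73.3 and 77.1 CPM with fluticasone propionate and 116, 133 and 116 CPM in DMSO. No library of 1 group reached into another group, and the log2 difference was -0.81 ± 0.29 (SE, interval -1.41 to -0.21, adjusted p = 0.875 by edgeR). mcm4, a subunit of the replicative helicase, had 21.0, 15.3 and 19.98 CPM with dexamethasone, against 38.8, 39.5 and 26.8 CPM with fluticasone propionate, a log2 difference of -0.88 (interval -1.57 to -0.20). chek1, the checkpoint kinase that guards stalled forks, had 3.00, 1.92 and 3.70 CPM with dexamethasone, against 7.63, 7.56 and 5.36 CPM with fluticasone propionate, a difference of -1.24 with a wide interval of -2.26 to -0.22. chaf1b, a histone chaperone of replicating DNA, differed by -1.37, but its libraries overlapped at 0.74 to 5.75 CPM with dexamethasone and 3.21 to 12.2 CPM with fluticasone propionate.

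Mitotic genes had the same median difference, -0.40 over 45 measured of 55. At an unadjusted p under 0.05, 0 were higher and 6 lower (backgrounds 2.68% and 2.6%), and 38 of 45 differences were below 0. Without dexamethasone library C, and likewise without fluticasone propionate library C, 2 were lower at that p, and 3 with a covariate for the share of reads outside genes. kpna2, an importin that carries spindle factors, had 5.00, 8.31 and 11.1 CPM with dexamethasone, against 19.4, 10.5 and 17.1 CPM with fluticasone propionate and 30.2, 34.7 and 30.2 CPM in DMSO. The compounds' libraries overlapped and both were below DMSO, with a difference of -0.996 between them (interval -1.75 to -0.24). bub3, a spindle checkpoint protein, had 17.02, 14.7 and 11.8 CPM with dexamethasone, against 26.4, 19.2 and 25.7 CPM with fluticasone propionate, a difference of -0.69 (interval -1.22 to -0.16).

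**Figure D3:**
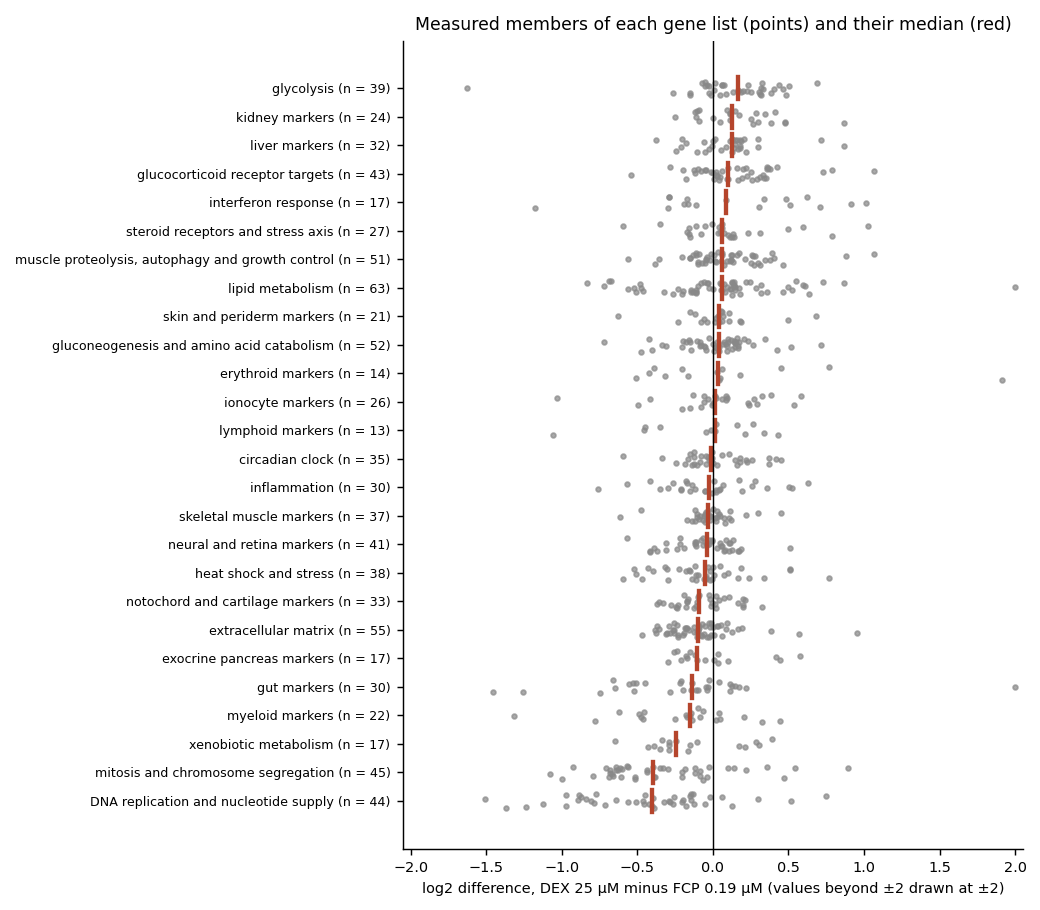
Each row is a gene list with the number of its measured members, each grey point a member's log2 difference between larvae given 25 µM dexamethasone and larvae given 0.19 µM fluticasone propionate, and the red bar the median. Medians run from -0.40 for DNA replication and mitosis to 0.17 for glycolysis, with 0.10 for glucocorticoid receptor targets; single points are not tested here.

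Among detoxification and gut genes, those with a small p lay mostly lower with dexamethasone. Of 17 measured xenobiotic genes (45 listed, 24 of which had no row of that name), 0 were higher and 5 lower at an unadjusted p under 0.05 (backgrounds 2.68% and 2.6%), and the median was -0.24. Without dexamethasone library A, and likewise without fluticasone propionate library A, 2 were lower, and 3 without dexamethasone library C or fluticasone propionate library B, or with the covariate. Their summed level was 903, 1039 and 956 CPM with dexamethasone, against 1247, 1219 and 1151 CPM with fluticasone propionate and 1624, 1594 and 1426 CPM in DMSO, with no overlap. cyp3a65, a cytochrome P450 of the gut and liver that oxidises steroids and drugs, had 121, 137 and 116 CPM with dexamethasone, against 194, 226 and 169 CPM with fluticasone propionate and 345, 345 and 260 CPM in DMSO. The 3 groups did not overlap, and the log2 difference between the compounds was -0.65 ± 0.17 (SE, interval -0.99 to -0.32, adjusted p = 0.571 by edgeR). It fell with each compound against DMSO, by 1.35 on the log2 scale with dexamethasone (adjusted p = 5.85e-07) and by 0.70 with fluticasone propionate (adjusted p = 0.0381). abcb4, a drug efflux pump, had 147, 181 and 149 CPM with dexamethasone, against 184, 188 and 210 CPM with fluticasone propionate, a difference of -0.29 (interval -0.51 to -0.07). abcc2, the pump that exports conjugates into bile, had 51.5, 61.3 and 51.1 CPM with dexamethasone, against 79.9, 80.3 and 55.2 CPM with fluticasone propionate, a difference of -0.39 (interval -0.70 to -0.08).

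Among 30 measured gut markers of 43, which include cyp3a65, 9 were lower and 1 higher at an unadjusted p under 0.05, the groups did not overlap in 9 that were lower, and the median was -0.14. The backgrounds are 2.6% lower and 2.68% higher at that p and 5.62% lower without overlap. Their summed level was 1939, 2054 and 1881 CPM with dexamethasone, against 2302, 2164 and 2361 CPM with fluticasone propionate and 2506, 2488 and 2452 CPM in DMSO. cldn15la, a tight junction protein of the intestine, had 51.5, 47.9 and 51.1 CPM with dexamethasone, against 78.7, 65.7 and 76.6 CPM with fluticasone propionate and 88.4, 101 and 87.1 CPM in DMSO. The groups did not overlap, with a difference of -0.55 (interval -0.88 to -0.23). slc15a1b, the peptide transporter of the intestinal brush border, had 81.6, 86.9 and 64.4 CPM with dexamethasone, against 115, 104 and 118 CPM with fluticasone propionate and 110, 90.7 and 116 CPM in DMSO. chia.1, a chitinase of the digestive tract, had 143, 99.0 and 109 CPM with dexamethasone, against 163, 206 and 222 CPM with fluticasone propionate and 136, 163 and 214 CPM in DMSO. Both lay lower with dexamethasone than with fluticasone propionate, by -0.53 and -0.74 on the log2 scale, while fluticasone propionate overlapped DMSO. The 1 higher gene, apoa1a, rested on libraries that disagreed, at 9.01, 0.64 and 19.2 CPM with dexamethasone, against 0, 2.33 and 0 CPM with fluticasone propionate. The detoxification and gut lists were both lower, and the part of gut tissue in the detoxification values was not tested.

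The plot of 12 genes by library shows steps from dexamethasone through fluticasone propionate to DMSO for some of them, such as fkbp5, lpin1a, pcna and cyp3a65. For ddit4, mcm4 and chia.1 the fluticasone propionate libraries overlapped DMSO, and chia.1 was on average highest with fluticasone propionate. glulb differed little between the compounds.

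**Figure D4:**
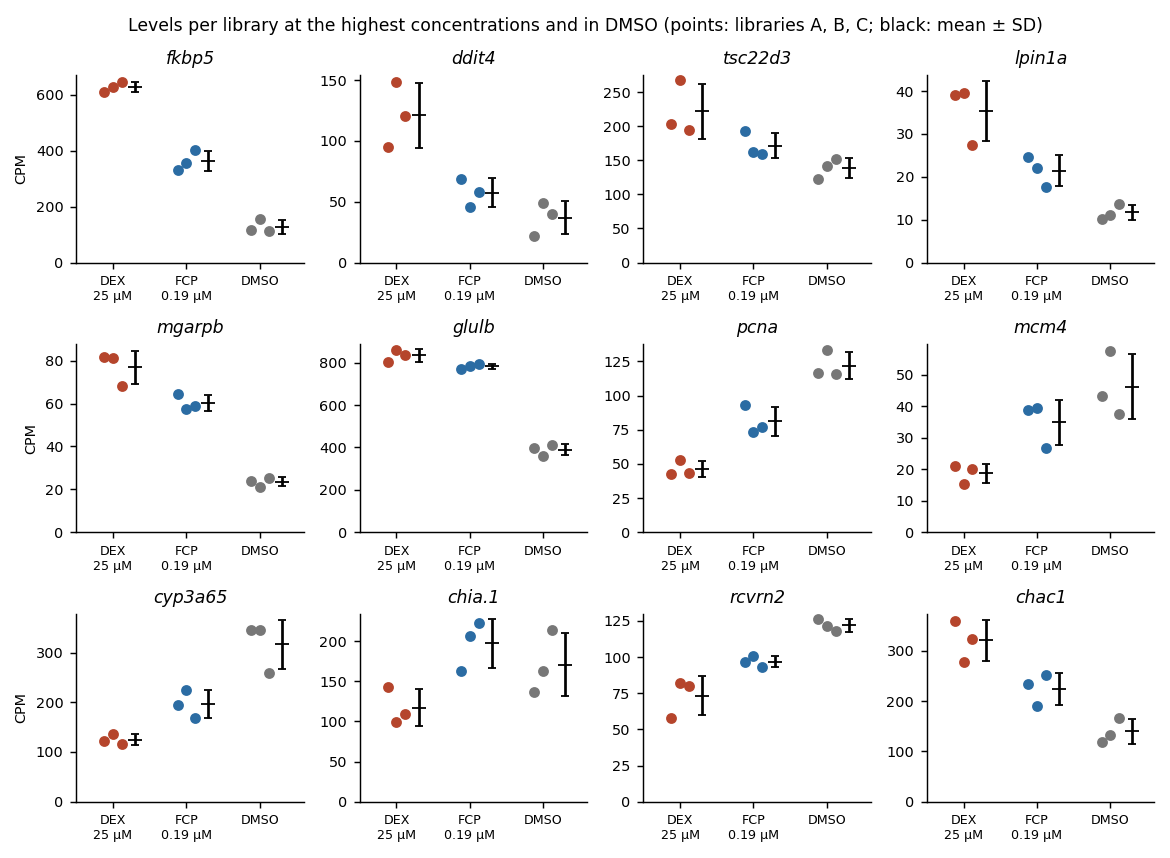
Levels in CPM are shown for 12 genes in larvae given 25 µM dexamethasone (red), 0.19 µM fluticasone propionate (blue) and DMSO (grey), with 3 points for libraries A, B and C and a black bar for the mean ± SD. fkbp5 averages 628 CPM with dexamethasone, 364 CPM with fluticasone propionate and 128 CPM in DMSO, glulb averages 835, 784 and 390 CPM in the same groups, and pcna and cyp3a65 are lowest with dexamethasone and highest in DMSO.

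Of 41 measured neural and retina markers, 0 were higher and 5 lower with dexamethasone at an unadjusted p under 0.05 (backgrounds 2.68% and 2.6%), though the list's median of -0.04 was close to that of all genes. Without dexamethasone library A 3 were lower, and 8 were lower with only the 6 libraries or with DMSO added to them. Of the 41 differences 16 lay above 0, the largest at 0.51. The members described here were picked for their small p and are all lower. slc1a3a, picked by the same rule, was also lower, at -0.74 to -0.42 over the fits that drop 1 library. rcvrn2, a recoverin that times the light response, had 57.6, 81.8 and 79.9 CPM with dexamethasone, against 96.3, 101 and 93.2 CPM with fluticasone propionate and 127, 121 and 118 CPM in DMSO. The 3 groups did not overlap, with a difference of -0.42 (interval -0.68 to -0.16). opn1sw2, a short-wave cone opsin, had 124, 97.1 and 94.0 CPM with dexamethasone, against 152, 134 and 137 CPM with fluticasone propionate, a difference of -0.42 (interval -0.68 to -0.15). gngt2a, a cone transducin subunit, had 355, 385 and 342 CPM with dexamethasone, against 421, 470 and 450 CPM with fluticasone propionate, a difference of -0.31 (interval -0.52 to -0.10).

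No lipid gene was called between the compounds. Of 63 measured, 5 were higher and 4 lower at an unadjusted p under 0.05 (backgrounds 2.68% and 2.6%), the groups did not overlap in 7 that were higher and 1 that was lower (backgrounds 5.52% and 5.62%), and the median was 0.06. The 5 include apoa1a, whose libraries disagreed. Without dexamethasone library C, 2 were higher, without fluticasone propionate library C, 3 were higher and 2 lower, and with the covariate 9 were higher. pnpla3, a lipase of lipid droplets, had 95.6, 87.5 and 104 CPM with dexamethasone, against 67.5, 54.7 and 73.9 CPM with fluticasone propionate and 42.2, 51.2 and 39.1 CPM in DMSO. Its groups did not overlap, and the difference was 0.55 (interval 0.23 to 0.86). apom, an apolipoprotein of high-density lipoprotein, had 90.6, 84.3 and 104 CPM with dexamethasone, against 119, 126 and 142 CPM with fluticasone propionate and 166, 175 and 178 CPM in DMSO, a difference of -0.47 (interval -0.72 to -0.23). cd36, a fatty acid transporter, differed by -0.51 (interval -0.85 to -0.16), although 1 fluticasone propionate library, at 47.7 CPM, lay within the dexamethasone range of 37.5 to 49.2 CPM.

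Of 38 measured stress genes, 2 were higher and 4 lower at an unadjusted p under 0.05, against backgrounds of 2.68% and 2.6%. Without dexamethasone library B 2 were lower, with DMSO added to the 6 libraries 7, and without fluticasone propionate library A 1 was higher and 2 lower. chac1, an enzyme that degrades glutathione and is induced by amino acid shortage, had 360, 278 and 324 CPM with dexamethasone, against 233, 190 and 252 CPM with fluticasone propionate and 119, 133 and 167 CPM in DMSO. The groups did not overlap, with a difference of 0.51 (interval 0.16 to 0.87). ddit3, the stress transcription factor CHOP, ran the other way between the compounds, at 29.5, 23.6 and 31.8 CPM with dexamethasone, against 44.0, 37.8 and 40.2 CPM with fluticasone propionate, a difference of -0.52 (interval -0.98 to -0.06). In reads not scaled for depth, ddit3 had 59, 37 and 43 with dexamethasone, 75, 65 and 75 with fluticasone propionate and 25, 56 and 35 in DMSO. Dexamethasone thus overlapped DMSO, and the fluticasone propionate reads lay above those of both other groups.

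The genes taken for their small p, 12 in each direction, have a symbol, groups that do not overlap and a higher group averaging 5 CPM or more. Some of them rest on few reads in the lower group. For si:ch211-220i18.4 the reads were 13, 3 and 9 with dexamethasone, against 0, 3 and 1 with fluticasone propionate. Library B had 3 reads with each compound, so only scaling for depth kept these groups apart. For ebp the reads were 7, 4 and 1 with dexamethasone, against 17, 8 and 19 with fluticasone propionate. Higher with dexamethasone were si:dkey-5i3.5, comtb (a catecholamine-degrading methyltransferase), shisa9b (a partner of glutamate receptors), fkbp5, stk35 (a kinase), pnpla3, csf2rb (a cytokine receptor subunit), nt5dc2, extl3 (a heparan sulfate synthesis enzyme), si:ch211-220i18.4, sipa1l3 and mfge8b (a secreted milk fat globule protein). si:dkey-5i3.5, a gene known only by its zebrafish clone name, had 97.1, 82.4 and 105 CPM with dexamethasone, against 49.3, 42.5 and 69.1 CPM with fluticasone propionate and 19.96, 25.3 and 22.6 CPM in DMSO. Its 3 groups formed separate steps like those of fkbp5, with a difference of 0.82 ± 0.19 (SE, interval 0.44 to 1.19, adjusted p = 0.435 by edgeR).

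Lower with dexamethasone were nop10 (a protein of the small nucleolar particles that modify ribosomal RNA), calcoco2 (an autophagy receptor), etf1a (the release factor that ends translation), farsb (a subunit of phenylalanine tRNA synthetase), apom, nrgna (a neuronal calmodulin-binding protein), cyp3a65, ebp (a cholesterol synthesis enzyme), chia.1, slc15a1b, rab6bb (a Golgi transport GTPase) and plekha8 (a lipid carrier). nop10 had the smallest p of all genes. It had 19.5, 15.3 and 17.02 CPM with dexamethasone, against 38.2, 37.8 and 34.3 CPM with fluticasone propionate and 31.9, 32.4 and 26.7 CPM in DMSO. The dexamethasone libraries stood below all others and the fluticasone propionate libraries above all DMSO libraries, with a difference of -1.07 ± 0.24 (SE, interval -1.55 to -0.60, unadjusted p = 2.4e-05, adjusted p = 0.435 by edgeR). For comtb the compounds lay on opposite sides of DMSO, which had 21.7, 27.7 and 25.4 CPM. The fluticasone propionate libraries were below all of these, at 16.4, 16.3 and 18.7 CPM. The dexamethasone libraries were above them, at 32.5, 31.3 and 28.1 CPM, the lowest only just. Against DMSO the log2 difference was 0.31 with dexamethasone (interval -0.10 to 0.72) and -0.53 with fluticasone propionate (interval -0.97 to -0.09).

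The second pair, dexamethasone at 8 µM against fluticasone propionate at 0.1 µM, gave the same contrast in libraries that the first pair did not use, at a measured ratio of 194.72. It called 0 genes with edgeR and 0 with DESeq2. At an unadjusted p under 0.05 DESeq2 listed 920 of 29295 genes, without the filter on low counts, and edgeR listed 1038 (5.58%). By edgeR 544 (2.92%) of these were higher and 494 (2.66%) lower, and groups did not overlap in 2004 genes (10.8%), 1005 higher (5.4%) and 999 lower (5.37%). Of the 12 genes that were higher in the first pair, 11 lay above 0 in the second, 4 of them at an unadjusted p under 0.05, and their median was 0.36 against 0.77 in the first pair. Of the 12 lower genes, 8 lay below 0, 2 of them at that p, with a median of -0.11 against -0.88. Of all genes at an unadjusted p under 0.05 in the first pair, 65.5% of the higher and 65.0% of the lower kept their side, against 55.0% of all genes tested.

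fkbp5 had 338, 404 and 522 CPM with 8 µM dexamethasone, against 192, 224 and 309 CPM with 0.1 µM fluticasone propionate. The groups did not overlap and the log2 difference of 0.80 (interval 0.35 to 1.25) was close to the 0.79 of the first pair. si:dkey-5i3.5 differed by 0.69 (interval 0.28 to 1.09), at 69.1, 67.2 and 60.9 CPM with dexamethasone, against 32.9, 38.9 and 50.3 CPM with fluticasone propionate. cyp3a65 differed by -0.75 (interval -1.08 to -0.42), at 126, 148 and 123 CPM with dexamethasone, against 217, 219 and 231 CPM with fluticasone propionate. In both pairs these 3 genes kept their side with no overlap of the groups. So did 17 of the 153 genes named by rule, against 194 of all 18606 (1.04%), but most of the 153 were named for their small p in the first pair. The 24 of smallest p also had to be without overlap there, so the contrast with all genes is partly built in. Without those 24 it was 10 of 129 (7.75%), and many of the 129 were picked by small p within their list. Among the 17 were pnpla3 (0.55 in each pair), chac1 (0.51 and 0.50), cldn15la (-0.55 and -0.29), abcb4 (-0.29 in each pair), zbtb16a (0.33 and 0.24) and rcvrn2 (-0.42 and -0.27).

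Some genes of the first pair lay near 0 or on the other side in the second. ddit4 had 50.2, 73.4 and 47.7 CPM with 8 µM dexamethasone, against 42.4, 51.0 and 96.0 CPM with 0.1 µM fluticasone propionate, a log2 difference of -0.16 (interval -0.88 to 0.57). The fluticasone propionate library C was high there, as it was for tsc22d3 at 213 CPM against 145 and 143 CPM in its group. chia.1 differed by 0.17 (interval -0.21 to 0.55), and closer to 0 than in the first pair were nop10 at -0.23 (interval -0.69 to 0.24), pcna at -0.24 (interval -0.81 to 0.33) and lpin1a at 0.17 (interval -0.40 to 0.75). Over the target list the second pair had 2 genes higher and 1 lower at an unadjusted p under 0.05 and a median of 0.02. For DNA replication 0 were higher and 2 lower with a median of -0.22, and for mitosis 0 and 2 with a median of -0.07 (backgrounds 2.92% and 2.66%). For xenobiotic genes 0 were higher and 4 of 17 lower, with a median of -0.02 and 8 of the 17 differences above 0. Their summed levels did not overlap, at 1049, 1127 and 1071 CPM with 8 µM dexamethasone, against 1217, 1275 and 1268 CPM with 0.1 µM fluticasone propionate. That sum includes the abundant cyp3a65, at 132 against 222 CPM on average, and abcb4, at 164 against 201 CPM. For gut markers 2 were higher and 4 lower, with a median of -0.13, and the summed levels overlapped. Whether the differences between the pairs exceed their errors was not tested.

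**Figure D5:**
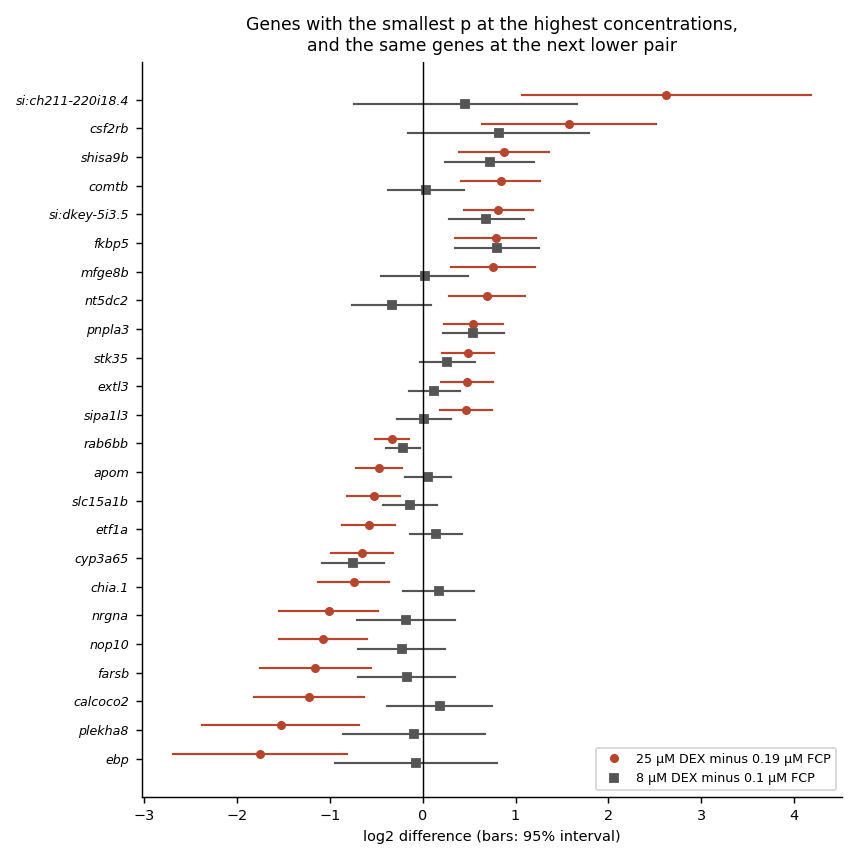
The 24 genes named by the rule for small p are shown, 12 per direction. Each has a symbol, groups that do not overlap in the first pair and a higher group averaging 5 CPM or more. Red circles give the log2 difference and 95% interval for 25 µM dexamethasone minus 0.19 µM fluticasone propionate. Grey squares give them for 8 µM dexamethasone minus 0.1 µM fluticasone propionate. fkbp5, si:dkey-5i3.5, pnpla3 and cyp3a65 have like values in both pairs, while ebp, plekha8, calcoco2 and comtb lie near 0 in the second pair.

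Fits with fewer libraries called a few genes between the compounds. With only the 6 libraries compared, 9 genes passed: fkbp5, ddit4, si:dkey-5i3.5 and tmem106ba were higher with dexamethasone, and cyp3a65, cbr1l, chia.1, nop10 and pcna lower. With the 3 DMSO libraries added, 6 of these 9 passed, without ddit4, tmem106ba and chia.1. The estimates hardly moved and the standard errors were smaller, for pcna 0.15 in the fit of 6 against 0.29 in that of 51. cbr1l, a carbonyl reductase, had 34.5, 44.7 and 55.5 CPM with dexamethasone, against 81.0, 73.3 and 78.2 CPM with fluticasone propionate and 127, 84.8 and 96.0 CPM in DMSO. tmem106ba, a membrane protein of lysosomes, had 50.5, 65.8 and 51.1 CPM with dexamethasone, against 31.1, 24.4 and 28.4 CPM with fluticasone propionate and 28.5, 8.24 and 34.3 CPM in DMSO. Its standard deviation within a group, pooled as for fkbp5, was 0.192 over both groups compared and 0.862 over the other 15 groups. Such a gap was not seen in all of the 9 genes. For cyp3a65 the values were 0.171 and 0.208 and for si:dkey-5i3.5 0.279 and 0.320, while chia.1 went the other way at 0.253 and 0.234. In the second pair tmem106ba lay on the other side, at -0.38 ± 0.48 (SE). cbr1l and tmem106ba were named after their values were seen.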

How the data were processed

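Per the labels' protocols, larval homogenates were pooled, and the 3′ tag kit (QuantSeq) adds unique molecular identifiers. Tools in the submitters' processing notes are STAR 2.7.10a and HTSeq 2.0.1, beside bcl2fastq 2.20.0, MultiQC 1.12, FastQC and edgeR. For the genome build, the strand setting and the collapsing of identifiers, nothing is given in the sources used here. The authors deposited raw read counts per gene in 1 table for each compound. The 2 tables list the same 36695 genes and hold identical counts for the 3 DMSO libraries, which were used once. HTSeq's summary rows, among them 22.6% to 33.6% of reads outside genes, were dropped from library sizes and tests. Of 17174 genes with locus numbers only, 2122 were named from RefSeq's gene table of assembly fPimPro1.hap1.1; no sequence or coordinate is printed.

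Counts of all 51 libraries in 17 groups were fitted together in edgeR 4.0.16 (R 4.3.3) with filterByExpr (minimum count 10, minimum total 15), TMM scaling, glmQLFit with robust estimation and glmQLFTest. P-values were adjusted by Benjamini-Hochberg over 18606 genes and called under 0.05. CPM (counts per 1000000 reads) use TMM-scaled library sizes; log2 differences are the first-named group minus the second. Intervals are 95% from the standard error and are not adjusted over genes. Replicates differed by more than sampling noise (chi-square per degree of freedom 1.47 to 3.14 over 51 pairs). On simulated counts the test gave 154 calls in the main comparison, of which 6 were false, among 18315 genes. DESeq2 1.42.0, other scaling, no filter, fewer libraries, a replicate block, a covariate and leaving out libraries were the alternatives.

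Named genes were, in each direction, the 12 with the smallest p among genes with a symbol whose groups did not overlap and whose higher group averaged 5 CPM or more, all measured glucocorticoid receptor targets, and up to 4 members of each other list, by smallest p. The 27 lists hold 1201 entries, of which 866 were tested, 150 were under the filter and 185 had no row of that name. The groups compared, the lists, their members and the rule were chosen with earlier results of these data known.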

Additional observations from a re-analysis of the deposited data

How the results depend on the processing

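For 25 µM dexamethasone against 0.19 µM fluticasone propionate, 0 genes were called with edgeR on all libraries, with other size factors, DESeq2, a covariate for reads outside genes, the replicate block and in each of the 6 fits without 1 library. The count was 18 of 29295 genes without a filter on low counts, 9 of 15867 with only the 6 libraries and 6 of 16685 with 9 libraries (DMSO added). All 6 were among the 9, and all 9 among the 18. The fit without a filter also called genes whose libraries disagreed, such as psmd3 (124, 385 and 189 CPM with dexamethasone, against 141, 198 and 7.50 CPM with fluticasone propionate). For 8 µM dexamethasone against 0.1 µM fluticasone propionate, 0 became 14 without a filter and 1 with only its 6 libraries. For dexamethasone against DMSO, 217 became 333 without a filter, 410 with 6 libraries, 369 with 9 and 76 to 166 without 1 library. For fluticasone propionate against DMSO, 43 became 108 without a filter, 129 with 6 libraries, 111 with 9, 84 with the covariate and 14 to 28 without 1 library. Beyond the number of libraries and genes in a fit, the cause was not tested. Of the named genes' values under the alternatives, 1913 stayed uncalled and within 1 standard error, 36 moved further and 21 passed the threshold. The sign of 17 of the 153 genes was the other one in at least 1 alternative, for all 17 when 1 library was left out; each had an interval holding 0 and a difference of at most 0.28 in size with all libraries. Over 1 standard error were hsd11b2 (0.10 with all, -0.27 to 0.27 without 1 library) and pfkfb3 (0.17 with all, -0.28 to 0.40). Same-lettered libraries of the 2 compounds did not deviate together (r = -0.13 for A, -0.08 for B and 0.035 for C). Unlike letters gave up to 0.16, for dexamethasone B and fluticasone propionate A. With 3 libraries per group, such values cannot show whether libraries of 1 letter shared a vessel or batch. With the replicate block the counts were 0, 0, 264 and 50 in the order above. Depth limits genes under 5 CPM most, of which 1.27% had an interval within ±1.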

Other observations

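No gene of the interferon response, of blood cells or of the further tissue lists was called between the compounds. All counts here are at an unadjusted p under 0.05 by edgeR, where 2.68% of all genes were higher and 2.6% lower. In short lists 1 or 2 genes exceed that share, at 11.8% for 2 of 17 interferon genes and 14.3% for 2 of 14 erythroid markers. In longer lists 1 gene can be close to it, as in glycolysis (2.56%). Such counts rest on very few genes, and no list was tested as a set. Of 17 interferon genes 2 were higher with dexamethasone and 0 lower (1 higher without dexamethasone library A or without fluticasone propionate library B). irf9, a transcription factor of interferon signalling, had 11.01, 10.2 and 14.8 CPM with dexamethasone, against 5.29, 4.65 and 7.50 CPM with fluticasone propionate and 14.3, 10.6 and 17.8 CPM in DMSO. Fluticasone propionate stood apart there, below both other groups, and the log2 difference was 1.01 (interval 0.30 to 1.73). In the second pair it was 0.89 (interval 0.12 to 1.66), but the groups overlapped. There irf9 had 10.6, 6.22 and 12.1 CPM with dexamethasone, against 6.57, 5.74 and 3.36 CPM with fluticasone propionate. Of 22 myeloid markers 0 were higher and 1 lower, with a median of -0.15; cd74a, an antigen presentation chaperone, had 8.01, 1.28 and 1.48 CPM with dexamethasone, against 8.22, 9.30 and 12.3 CPM with fluticasone propionate. Of 14 erythroid markers 2 were higher and 1 lower. Apart from that p, the groups did not overlap in 2 erythroid markers that were lower (background 5.62% for lower without overlap). At that p, 1 was higher without dexamethasone library B or C or fluticasone propionate library C, and 0 without fluticasone propionate library B. Of 13 lymphoid markers 0 were higher and 1 lower, and of 30 inflammation genes none had an unadjusted p under 0.05.

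Among other tissue markers, none of 37 skeletal muscle markers, 35 circadian clock genes and 17 exocrine pancreas markers had an unadjusted p under 0.05, and the summed muscle markers were 77587, 84008 and 79670 CPM with dexamethasone, against 81389, 81016 and 83276 CPM with fluticasone propionate. Of 32 liver markers 2 were higher with a median of 0.13, and of 24 kidney markers 2 were higher with a median of 0.13, among them nphs1 (a protein of the filtration slit) at 0.48 and lrp2a (the tubular receptor megalin) at 0.41. Without dexamethasone library A or fluticasone propionate library A 1 kidney gene was higher, and without dexamethasone library B or C or fluticasone propionate library B 1 liver gene; with a covariate for the share of reads outside genes 5 liver genes were higher. Of 26 ionocyte markers 1 was higher, of 21 skin markers 1 was higher and 1 lower, and of 33 notochord and cartilage markers 1 was lower. In 55 extracellular matrix genes 2 were higher and 5 lower; the lower ones include col1a1a, col1a1b and col1a2, the chains of type I collagen, at -0.27, -0.23 and -0.26. Without fluticasone propionate library C 0 matrix genes were lower, without dexamethasone library A 1, without fluticasone propionate library A 2, and without dexamethasone library B or C 3; with the covariate 1 was lower. Of 39 glycolysis genes 1 was higher and 1 lower with a median of 0.17 (6 higher with the covariate and 4 without a filter on low counts), of 52 genes of gluconeogenesis and amino acid catabolism 1 and 1 with a median of 0.04, and of 51 genes of muscle proteolysis and growth control 2 and 1 with a median of 0.06 (1 higher without dexamethasone library A or fluticasone propionate library C, 5 without a filter or with 9 libraries and 6 with the 6 compared). The mitochondrial genome list had no row of its names.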
